A study of Mus musculus with 2 samples.

Results

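The genes that copy the genome were followed here in mouse hematopoietic stem cells (HSC), as 50 genes of the DNA replication machinery in 14 complexes or steps. They were chosen by name and found by matching the Ensembl gene identifiers of the deposited tables to symbols. All 50 were present once each, among 21474 protein-coding genes and 42462 annotated genes. Cells of male C57BL/6J mice, adult at 5 to 6 weeks of age, were the source, and their total RNA was sequenced once ribosomal RNA had been removed. The design has 1 group of 2 biological replicates and no treated, mutant or other comparison group. Each library was prepared with ScriptSeq chemistry from 100 ng of RNA. The listed size range was 232 to 1000 nucleotides for replicate 2 and 172 to 1452 nucleotides for replicate 1. Its part in the differences between the libraries was not tested. The labels list a biosample for each replicate and a common donor entry, and neither they nor the files say whether these were different animals or pools of animals. Technical spread and spread between animals therefore cannot be told apart in these libraries. The sorting gate is not stated in the labels or files.

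Replication starts at origins that the origin recognition complex (ORC) marks, where Cdc6 and Cdt1 load the ring-shaped MCM2-7 helicase during G1 phase. In S phase the kinase Cdc7 with Dbf4, together with Cdc45 and the GINS complex, turns the loaded ring into a moving helicase, and polymerases alpha, delta and epsilon copy the opened strands with the sliding clamp Pcna. Adult HSC are known to be mostly quiescent, whereas the progenitors next to them in the marrow divide often, and many replication genes are transcribed mainly in cycling cells under control of E2F factors.

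Replicate 2 held 48490188 expected counts and replicate 1 held 27901074. A floor of 3 counts equalled 0.0619 CPM (expected counts scaled by the library total) in replicate 2 and 0.108 CPM in replicate 1. Protein-coding genes took 20.3% of all TPM (a transcript level per length, scaled to a constant sum per library) in replicate 2 and 16.3% in replicate 1, and the difference of 0.32 on the log2 scale enters every TPM ratio between the libraries. Of the 18 genes listed as HSC markers, 17 reached 1 TPM in both libraries. The median of the 18 was 15.8 TPM in replicate 2 and 16.4 TPM in replicate 1. The list includes Cd34, Flt3 and Cd48, which progenitors carry too, so it does not separate HSC from progenitors. Cd34 had 166 TPM in replicate 2 and 145 TPM in replicate 1. Flt3 had 53.2 and 57.9 TPM, and Cd48 had 12.4 and 16.1 TPM, in the same order. Slamf1, which marks the most primitive HSC, stayed at 0.43 TPM in replicate 2 and 0.42 TPM in replicate 1. It was the only HSC marker of the list under 1 TPM. With replicate 2 given first, Hlf of the same list had 20.55 and 25.79 TPM, Mecom 16.85 and 16.76 TPM, and Procr 14.71 and 12.69 TPM. Lower ones were Fgd5 with 1.15 and 1.18 TPM and Tek with 2.59 and 1.28 TPM. Markers of other lineages were present too. All 16 neutrophil markers were lower in replicate 2 (sum 1263 TPM) than in replicate 1 (sum 3262 TPM), and S100a8 alone gave 645 TPM in replicate 2 and 1504 TPM in replicate 1. Of the 14 erythroid markers with a mean of at least 1 TPM, 13 were higher in replicate 2, and the 16 of the list summed to 284 TPM in replicate 2 and 135 TPM in replicate 1. Monocyte markers summed to 185 TPM in replicate 2 and 385 TPM in replicate 1, T cell markers to 19.3 TPM in replicate 2 and 17.7 TPM in replicate 1, and megakaryocyte markers to 36.7 TPM in replicate 2 and 25.6 TPM in replicate 1. B cell markers summed to 4.42 TPM in replicate 2 and 6.31 TPM in replicate 1, with Pax5 listed at 0. In bulk RNA, fewer cells of a type and less RNA per cell cannot be told apart, and the part of other cell types in the levels below was not tested.

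Replication genes were present throughout and stood high among protein-coding genes. At least 1 TPM in both libraries was reached by 49 of 50, against 44.0% of protein-coding genes. The exception was Orc1, and all 50 had more than 3 counts, the fewest being 532 expected counts in replicate 2 and 230 in replicate 1, both of Orc1. The median of the 50 was 15.7 TPM in replicate 2 and 10.8 TPM in replicate 1 (13.2 ± 3.45 TPM, SD, n = 2), against 0.53 and 0.51 TPM for all protein-coding genes and 7.16 and 5.84 TPM for the 9443 protein-coding genes detected in both. By mean TPM all 50 lay above the median of protein-coding genes, 46 above their percentile 75, 20 above percentile 90 and 7 above percentile 95. The members ranged from percentile 55.3 to percentile 99.1, with a median of 88.6.

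The level was unevenly shared. The 5 highest genes, Pcna, Mcm7, Mcm6, Orc4 and Mcm3, held 37.9% of the summed TPM of the 50 in replicate 2 and 37.3% in replicate 1. The 5 lowest were Pole2, Cdc6, Cdt1, Gins3 and Orc1. Highest and lowest differed by 91.3-fold in replicate 2 and 111-fold in replicate 1. The order was much the same in both libraries (Spearman rho 0.94 across the 50 genes, which share libraries and are not replicates). All 50 together took 0.575% of protein-coding TPM in replicate 2 and 0.511% in replicate 1.

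**Figure D1:**
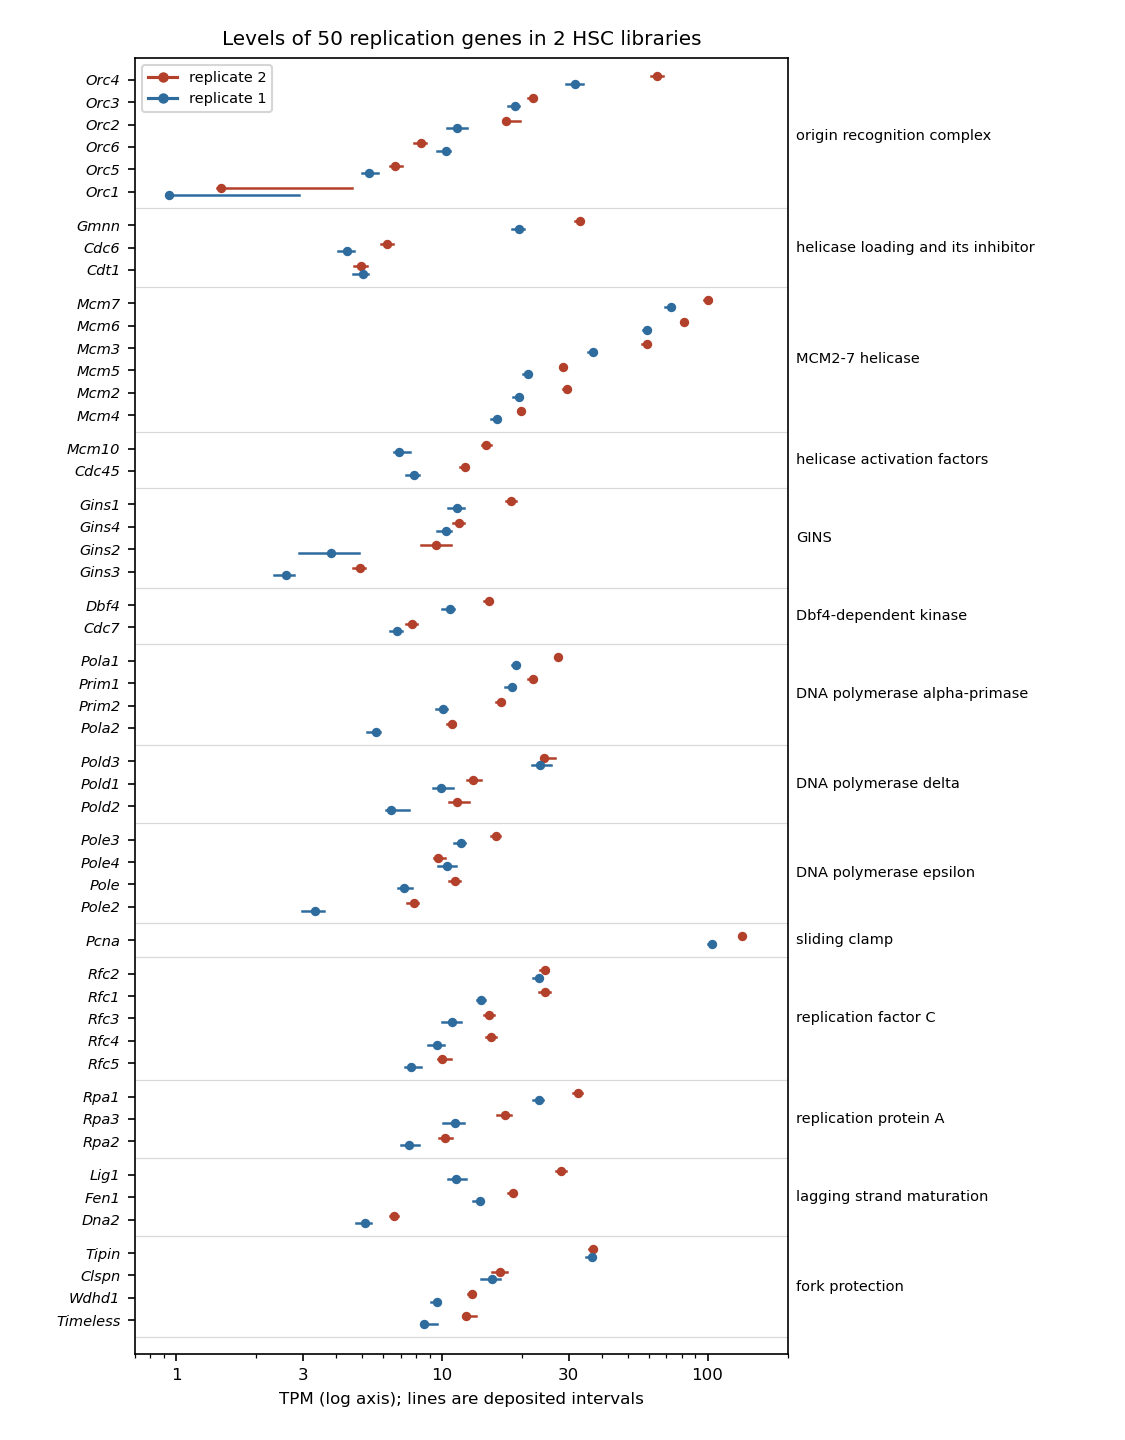
TPM of each of the 50 genes on a log axis, grouped by complex and sorted by mean, with replicate 2 in red above replicate 1 in blue and the deposited TPM intervals as lines. Pcna stood highest at 135 and 104 TPM, Orc1 lowest at 1.48 and 0.94 TPM, and 47 of 50 genes were higher in replicate 2.

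A pair of genes is called ordered here when their deposited intervals did not overlap in either library and both libraries gave the same direction. Within complexes 65 of 78 pairs of genes were ordered, or 83.3%, against 80.6% of all pairs of protein-coding genes detected in both libraries. The share over all 1225 pairs of the 50 genes was 81.2%. Among neighbours in the order of a complex, 23 of 36 pairs were ordered. The median complex had a highest gene 3.14 times its lowest by mean TPM.

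ORC had the widest range of any complex, 39.9-fold by mean TPM. By CPM it was 12.7-fold, beside 10.04-fold for replication protein A. Orc4, a subunit of the ATPase ring that holds origin DNA, had 64.7 TPM in replicate 2 and 31.8 TPM in replicate 1. Orc1, the ATPase whose protein is known in human cells to vary over the cell cycle, had 1.48 TPM in replicate 2 and 0.94 TPM in replicate 1. Both libraries placed Orc4 first and Orc1 last, and Orc1 was 12-fold lower than the core subunit Orc2 (geometric mean over the libraries), at percentile 55.3 of protein-coding genes. On the log2 scale Orc1 over Orc2 was -3.58 by TPM and -2.77 by the deposited posterior mean of TPM.

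Between these ends lay Orc3, a core subunit, with 22.0 TPM in replicate 2 and 18.8 TPM in replicate 1. Orc2 had 17.5 TPM in replicate 2 and 11.4 TPM in replicate 1. Orc6, the small subunit that is bound less tightly than the others, had 8.33 TPM in replicate 2 and 10.4 TPM in replicate 1. It was the only one of the 50 genes that was lower in replicate 2 with intervals that did not overlap, and Orc6 and Orc2 were the only pair of ORC genes that was not ordered. Orc5, a further ATPase-fold subunit, had 6.67 TPM in replicate 2 and 5.31 TPM in replicate 1. Low Orc1 did not depend on how length was treated, whereas high Orc4 did. Per kilobase of the longest protein-coding transcript, a measure added after seeing the data, Orc3 led with 41.5 CPM per kilobase, Orc2 had 34.3, Orc4 26.8, Orc6 22.9, Orc5 15.4 and Orc1 3.19. Orc1 also carried the least certain value. Its TPM in replicate 1 lay just under its own deposited interval of 0.954 to 2.90 TPM, which surrounds the posterior mean of 1.75 TPM.

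Among the helicase loaders, the transcript of the inhibitor stood above that of its target. Gmnn, or geminin, which binds Cdt1 and blocks renewed loading once S phase has begun, had 33 TPM in replicate 2 and 19.5 TPM in replicate 1. Cdt1, the loader it blocks, had 4.98 TPM in replicate 2 and 5.04 TPM in replicate 1. Gmnn was 5.07-fold above Cdt1, with 6.63-fold in replicate 2 and 3.87-fold in replicate 1, and the pair was ordered. On the log2 scale Cdt1 over Gmnn was -2.34 by TPM, -1.89 per kilobase of the longest protein-coding transcript and -0.94 by CPM. Cdc6, the ATPase that recruits the helicase with Cdt1, had 6.24 TPM in replicate 2 and 4.40 TPM in replicate 1. Cdc6 and Cdt1 were not ordered, since Cdc6 was higher in replicate 2 and Cdt1 was higher in replicate 1. Gm20388, a protein-coding gene on the same strand that overlaps Cdt1, had 3.85 TPM in replicate 2 and 5.45 TPM in replicate 1. Whether reads were split between both annotations was not tested. The expected counts of Cdt1 were whole numbers, 1257 in replicate 2 and 869 in replicate 1.

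The genes of the MCM2-7 ring, whose proteins stand in equal number in the hexamer, were high but unequal. Mcm7 had 101 TPM in replicate 2 and 72.7 TPM in replicate 1. Mcm6 had 81.9 TPM in replicate 2 and 59.3 TPM in replicate 1. Mcm3 had 58.9 TPM in replicate 2 and 37.2 TPM in replicate 1. These 3 were at ranks 2, 3 and 5 of the 50 genes. Mcm2 had 29.5 TPM in replicate 2 and 19.5 TPM in replicate 1. Mcm5 had 28.7 TPM in replicate 2 and 21.1 TPM in replicate 1. Mcm4 was lowest with 19.9 TPM in replicate 2 and 16.1 TPM in replicate 1. The groups Mcm3, Mcm6 and Mcm7 on one side and Mcm2, Mcm4 and Mcm5 on the other did not overlap in either library, and 14 of 15 pairs were ordered, all except Mcm2 with Mcm5. Mcm6 was 3.90-fold above Mcm4, and Mcm7 was 1.83-fold above Mcm3, as geometric means.

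Mcm7 led the complex by TPM, and Mcm6 led it by CPM and, as a mean of both libraries, by counts per length. CPM per kilobase of the longest protein-coding transcript was 124 for Mcm6, 120 for Mcm7 and 110 for Mcm3. It was 66.5 for Mcm5, 65.0 for Mcm2 and 48.4 for Mcm4. Mcm3, Mcm6 and Mcm7 thus led again, and the range of the complex was 2.56-fold, against 4.82-fold by TPM. The value of Mcm6 and this range depend on the length taken for Mcm6, that of Mcm6-203 with 4355 nucleotides. Mcm6-203 held 4.54% of the TPM of the gene in replicate 2 and 6.32% in replicate 1. Mcm6-201, of 2910 nucleotides, held 92.1% in replicate 2 and 89.4% in replicate 1. In replicate 2, retained-intron transcripts took 29.5% of the TPM of Mcm7 and 10.3% of its counts, and in replicate 1 they took 19.7% of its TPM and 8.26% of its counts. Mcm7 also hosts the microRNA genes Mir25, Mir93 and Mir106b, which have an effective length of 0 in the gene table and were therefore not measured apart from it.

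The start regions of these genes show what the letters near their transcription starts have in common. RefSeq windows of 250 bases before to 50 bases after a start (build GRCm38.p6) matched 41 of the 50 genes, with none matched for Gmnn, Mcm4, Gins1, Gins2, Gins4, Prim2, Pole, Rfc2 and Tipin. The search used E2F words (TTTCCCGC, TTTCGCGC, TTTGCCGC or TTTGGCGC), the CCAAT box (CCAAT), the CHR word (TTTGAA) and the GC box (GGGCGG), on both strands and in any window of a gene. An E2F word stood in windows of 17 of 41 replication genes (41.5%), against 5.19% of 7587 protein-coding genes detected in both libraries and 2.61% of all 27025 genes with a window. A CCAAT box stood in 53.7% of the 41, against 43.5% and 41.1%. The CHR word stood in 17.1% of the 41, against 14.6% and 20.2%, and the GC box in 70.7%, against 70.4% and 38.2%. The 17 genes were Orc1, Orc3, Cdc6, Cdt1, Mcm3, Mcm5, Mcm6, Mcm7, Gins3, Pola1, Pold1, Pold3, Pole2, Pole4, Rfc3, Lig1 and Clspn. Their median level was 16.0 TPM, against 11.9 TPM for the 24 replication genes with a window and no such word. Such a match describes letters and is not a bound site, and a window without a match says nothing about E2F.

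Windows of 5 ring genes are printed to compare them, with those of the lowest gene, Orc1, and the highest, Pcna. Each reads from 5′ to 3′ on the strand of its gene, and capitals mark E2F words and CCAAT boxes on either strand (GCGGGAAA, GCGCGAAA, GCGCCAAA and ATTGG are the forms on the opposite strand seen here).
Mcm7, chr5:138171834-138172133, minus strand: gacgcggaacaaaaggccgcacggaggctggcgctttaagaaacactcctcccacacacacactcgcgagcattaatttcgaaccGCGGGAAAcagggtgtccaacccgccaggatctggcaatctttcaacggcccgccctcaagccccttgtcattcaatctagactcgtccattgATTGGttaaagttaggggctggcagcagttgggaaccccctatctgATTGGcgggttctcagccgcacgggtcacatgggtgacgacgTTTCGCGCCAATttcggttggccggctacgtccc
Mcm6, chr1:128359656-128359955, minus strand: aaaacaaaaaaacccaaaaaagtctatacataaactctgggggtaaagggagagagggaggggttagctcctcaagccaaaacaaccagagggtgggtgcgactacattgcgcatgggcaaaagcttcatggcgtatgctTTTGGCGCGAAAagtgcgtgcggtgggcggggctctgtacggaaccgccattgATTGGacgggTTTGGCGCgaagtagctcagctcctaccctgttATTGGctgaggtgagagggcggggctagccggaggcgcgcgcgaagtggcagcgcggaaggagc
Mcm3, chr1:20820263-20820562, minus strand: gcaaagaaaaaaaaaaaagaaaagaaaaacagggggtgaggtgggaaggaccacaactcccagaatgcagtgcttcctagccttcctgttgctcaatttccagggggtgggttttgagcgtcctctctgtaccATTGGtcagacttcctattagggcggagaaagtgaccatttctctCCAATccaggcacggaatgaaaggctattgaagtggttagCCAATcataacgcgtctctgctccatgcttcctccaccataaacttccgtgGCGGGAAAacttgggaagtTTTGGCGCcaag
Mcm5, chr8:75109259-75109558, plus strand: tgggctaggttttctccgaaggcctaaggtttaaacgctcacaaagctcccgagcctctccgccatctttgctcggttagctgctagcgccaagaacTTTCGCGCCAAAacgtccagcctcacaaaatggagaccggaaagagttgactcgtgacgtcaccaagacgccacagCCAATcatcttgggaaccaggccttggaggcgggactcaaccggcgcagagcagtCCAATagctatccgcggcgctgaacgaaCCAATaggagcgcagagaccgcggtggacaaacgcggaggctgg
Mcm2, chr6:88898731-88899030, minus strand: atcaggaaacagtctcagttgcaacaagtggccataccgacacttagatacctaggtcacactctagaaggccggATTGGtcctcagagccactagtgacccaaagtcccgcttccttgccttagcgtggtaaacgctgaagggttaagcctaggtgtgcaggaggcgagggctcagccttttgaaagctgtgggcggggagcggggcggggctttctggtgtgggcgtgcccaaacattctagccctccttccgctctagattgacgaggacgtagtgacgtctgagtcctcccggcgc
Orc1, chr4:108579204-108579503, plus strand: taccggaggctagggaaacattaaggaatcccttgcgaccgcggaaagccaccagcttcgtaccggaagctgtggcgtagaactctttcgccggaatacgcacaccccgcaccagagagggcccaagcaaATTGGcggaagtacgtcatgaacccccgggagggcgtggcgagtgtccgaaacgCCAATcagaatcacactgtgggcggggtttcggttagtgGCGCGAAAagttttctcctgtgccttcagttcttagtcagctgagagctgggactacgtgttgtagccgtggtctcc
Pcna, chr2:132253131-132253430, minus strand: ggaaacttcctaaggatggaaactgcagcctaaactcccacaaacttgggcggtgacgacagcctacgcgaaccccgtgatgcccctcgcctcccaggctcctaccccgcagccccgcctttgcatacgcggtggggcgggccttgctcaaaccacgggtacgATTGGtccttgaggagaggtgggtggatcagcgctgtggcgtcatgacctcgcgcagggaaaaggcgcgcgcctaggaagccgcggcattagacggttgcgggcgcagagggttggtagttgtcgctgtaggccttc

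Counted from 1 at the first base after the start, with bases before it negative, the E2F words of Mcm6 began at -110, -106 and -47, and the first pair of them overlapped. Those of Mcm7 began at -165 and 17, and the second overlapped a CCAAT box. Mcm7 has 2 windows, and the printed one was picked because it holds E2F words, while the other holds none. In Mcm3 the E2F words began at 20 and 39, in Mcm5 at -153 and -149, and in Orc1 at -27. Neither Mcm2 nor Pcna held one, although Pcna was the highest of the 50 genes and Orc1 the lowest, so the presence of a word did not follow the level among these 7.

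**Figure D2:**
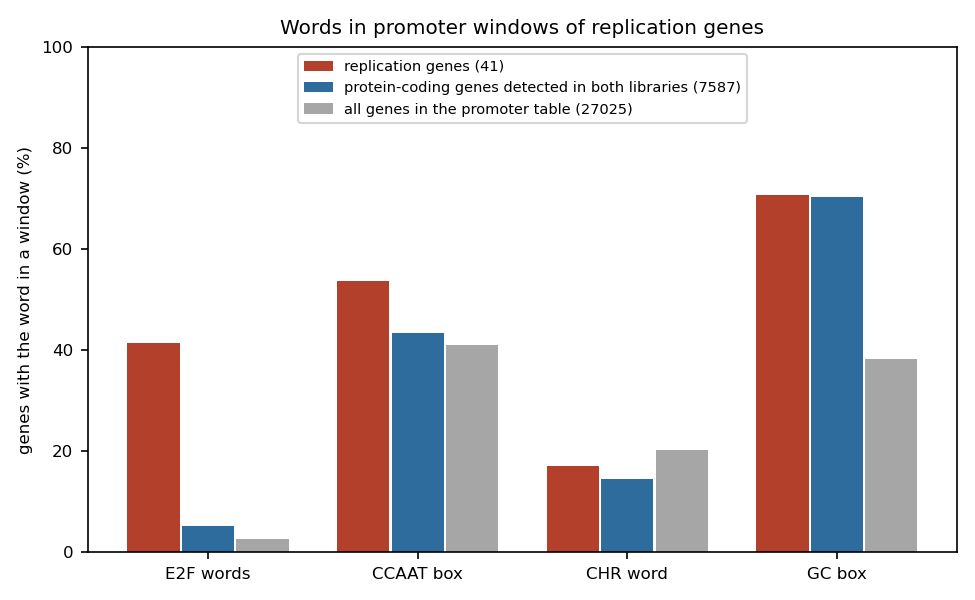
Percent of genes with an E2F word, a CCAAT box, a CHR word or a GC box in a promoter window, for 41 replication genes in red, 7587 detected protein-coding genes in blue and all 27025 genes in grey. The replication genes stood apart for E2F words, at 41.5% against 5.19%, and close to the detected genes for the GC box, at 70.7% against 70.4%.

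Genes that turn the loaded ring into an active helicase were of middle level. Cdc45, which stays in the moving helicase, had 12.2 TPM in replicate 2 and 7.86 TPM in replicate 1. Mcm10, needed for the last step of activation, had 14.7 TPM in replicate 2 and 6.87 TPM in replicate 1. The pair was not ordered, with Mcm10 higher in replicate 2 and Cdc45 higher in replicate 1.

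The GINS genes, whose proteins form a complex of equal parts, differed by 3.94-fold from highest to lowest. Gins1 had 18.2 TPM in replicate 2 and 11.4 TPM in replicate 1. Gins4 had 11.6 TPM in replicate 2 and 10.4 TPM in replicate 1. Gins2 had 9.51 TPM in replicate 2 and 3.83 TPM in replicate 1. Gins1 led and Gins3 came last in both libraries, and Gins1 with Gins4 was the only pair of the complex that was not ordered, since their intervals overlapped in replicate 1. Gins3 had 4.91 TPM in replicate 2 and 2.60 TPM in replicate 1. Per kilobase of the longest protein-coding transcript Gins2 came last instead, with 5.34 CPM per kilobase, below Gins3 with 9.61, and the range of the complex was 6.22-fold. The transcript of Gins2 that led in replicate 2 was a processed transcript of 473 nucleotides, and its longest protein-coding one is 3900 nucleotides.

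Of the kinase that fires origins, the activator was above the enzyme. Dbf4, the activating subunit, had 15 TPM in replicate 2 and 10.7 TPM in replicate 1. Cdc7, the kinase, had 7.73 TPM in replicate 2 and 6.76 TPM in replicate 1. Dbf4 was 1.75-fold above Cdc7 and the pair was ordered.

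The 3 replicative polymerases had middle levels, with medians of 16.8 TPM for alpha-primase, 11.5 TPM for delta and 9.66 TPM for epsilon over the mean TPM of their genes. Polymerase alpha with primase lays the RNA and DNA primers. Its catalytic subunit Pola1 had 27.3 TPM in replicate 2 and 19.1 TPM in replicate 1. Its B subunit Pola2 had 11 TPM in replicate 2 and 5.63 TPM in replicate 1. Pola1 was 2.91-fold above Pola2. The small primase subunit Prim1, which makes the RNA, had 22.0 TPM in replicate 2 and 18.4 TPM in replicate 1. The large primase subunit Prim2 had 16.7 TPM in replicate 2 and 10.1 TPM in replicate 1. Prim1 was 1.55-fold above Prim2, and Pola1 with Prim1 was the only pair of the complex that was not ordered.

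In polymerase delta, the main lagging-strand enzyme, an accessory subunit was highest. Pold3, which binds the clamp, had 24.2 TPM in replicate 2 and 23.5 TPM in replicate 1. The catalytic subunit Pold1 had 13.1 TPM in replicate 2 and 9.89 TPM in replicate 1. The B subunit Pold2 had 11.5 TPM in replicate 2 and 6.46 TPM in replicate 1. Pold3 was 2.09-fold above Pold1, and Pold1 with Pold2 was not ordered. In polymerase epsilon, the leading-strand enzyme, Pole3, a histone-fold subunit, was highest with 16.0 TPM in replicate 2 and 11.8 TPM in replicate 1. Its histone-fold partner Pole4 had 9.71 TPM in replicate 2 and 10.5 TPM in replicate 1, and the pair was not ordered. The catalytic subunit Pole had 11.2 TPM in replicate 2 and 7.23 TPM in replicate 1. The B subunit Pole2 was lowest with 7.84 TPM in replicate 2 and 3.34 TPM in replicate 1. Pole3 was 1.53-fold above Pole, Pole was 1.76-fold above Pole2, and Pold1 was 1.26-fold above Pole, all ordered in both libraries. Over protein-coding transcripts alone, Pold1 had 8.81 TPM and Pole 9.73 TPM in replicate 2. In replicate 1 they had 6.75 and 4.78 TPM, so that direction differed between the libraries. By the same measure Pold3 had 19.9 TPM in replicate 2 and 9.98 TPM in replicate 1, still above Pold1 and Pold2. Retained-intron transcripts took 57.4% of the TPM of Pold3 in replicate 1.

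Pcna, the ring-shaped clamp that tethers polymerases to DNA, was the highest gene, at percentile 99.1 of protein-coding genes. It had 135 TPM in replicate 2 and 104 TPM in replicate 1, and it lies at chr2:132249162-132253314 on the minus strand of GRCm38. The processed pseudogene Pcna-ps2 had 2.88 TPM in replicate 2 and 6.78 TPM in replicate 1, and Pcna-ps1 was listed at 0. The number of reads that fit both copies was not measured. Among the 50 genes, the largest deposited posterior SD of an expected count was 0.171% of that count.

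The clamp loader, replication factor C, had levels between 8.85 and 23.9 TPM by mean. Rfc2, a small subunit, had 24.5 TPM in replicate 2 and 23.3 TPM in replicate 1. Rfc1, the large subunit, had 24.5 TPM in replicate 2 and 14.1 TPM in replicate 1. Pcna was 6.40-fold above Rfc1. Of the small subunits, Rfc3 had 15 TPM in replicate 2 and 10.9 TPM in replicate 1. Rfc4 had 15.4 TPM in replicate 2 and 9.55 TPM in replicate 1. Rfc5 was lowest with 10.1 TPM in replicate 2 and 7.64 TPM in replicate 1. Retained-intron transcripts took 12.5% of the TPM of Rfc3 in replicate 2 and 54.8% in replicate 1. Over protein-coding transcripts alone, Rfc3 had 13.2 TPM and Rfc5 8.54 TPM in replicate 2. In replicate 1 Rfc3 had 4.93 TPM by that measure, below Rfc5 with 7.08 TPM. Of the 10 pairs 8 were ordered, among them Rfc2 over Rfc3 by 1.86-fold and Rfc1 over Rfc4 by 1.53-fold, and the exceptions were Rfc1 with Rfc2 and Rfc3 with Rfc4. Rfc4 is overlapped on the opposite strand by Eif4a2, a translation factor gene with 256 TPM in replicate 2 and 240 TPM in replicate 1. The labels and headers do not say whether the counting used strand, and 11 of the 50 genes have such a detected partner on the opposite strand.

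All 3 pairs of replication protein A, which coats unwound single strands, were ordered. Rpa1, the large DNA-binding subunit, had 32.6 TPM in replicate 2 and 23.2 TPM in replicate 1. Rpa3, the small subunit, had 17.3 TPM in replicate 2 and 11.2 TPM in replicate 1. Rpa2, the middle subunit, had 10.3 TPM in replicate 2 and 7.52 TPM in replicate 1. The order Rpa1, Rpa3, Rpa2 was the same in both libraries, with Rpa1 3.13-fold above Rpa2 and 1.98-fold above Rpa3. Per kilobase of the longest protein-coding transcript the order was the same, with Rpa1 1.86-fold above Rpa2. By that measure log2 Rpa3 over Rpa1 was -0.41, against -0.98 by TPM. Both values depend on the length taken for Rpa1, that of Rpa1-202 with 5077 nucleotides. Rpa1-202 held 1.15% of the TPM of the gene in replicate 2 and 1.69% in replicate 1. Rpa1-201, of 2942 nucleotides, held 65.8% in replicate 2 and 69.5% in replicate 1.

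Of the genes that join lagging-strand fragments, Fen1, the flap nuclease, had 18.5 TPM in replicate 2 and 13.9 TPM in replicate 1. Lig1, the ligase that seals the nicks, had 28.2 TPM in replicate 2 and 11.3 TPM in replicate 1. Fen1 and Lig1 changed places between the libraries and were not ordered. Dna2, a nuclease and helicase for long flaps, was lowest with 6.63 TPM in replicate 2 and 5.13 TPM in replicate 1, and Fen1 was 2.75-fold above it.

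Among fork protection genes, Tipin was highest. Tipin, a small partner of Timeless, had 37.2 TPM in replicate 2 and 36.8 TPM in replicate 1. Timeless, with which it travels at the fork, had 12.3 TPM in replicate 2 and 8.56 TPM in replicate 1. Tipin was 3.60-fold above Timeless as a geometric mean, in the same direction in both libraries. Clspn, or claspin, which links the fork to the checkpoint kinase Chek1, had 16.5 TPM in replicate 2 and 15.4 TPM in replicate 1. Wdhd1, also called And-1, which couples the helicase to polymerase alpha, had 12.9 TPM in replicate 2 and 9.57 TPM in replicate 1. Wdhd1 with Timeless was the only pair of the group that was not ordered.

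**Figure D3:**
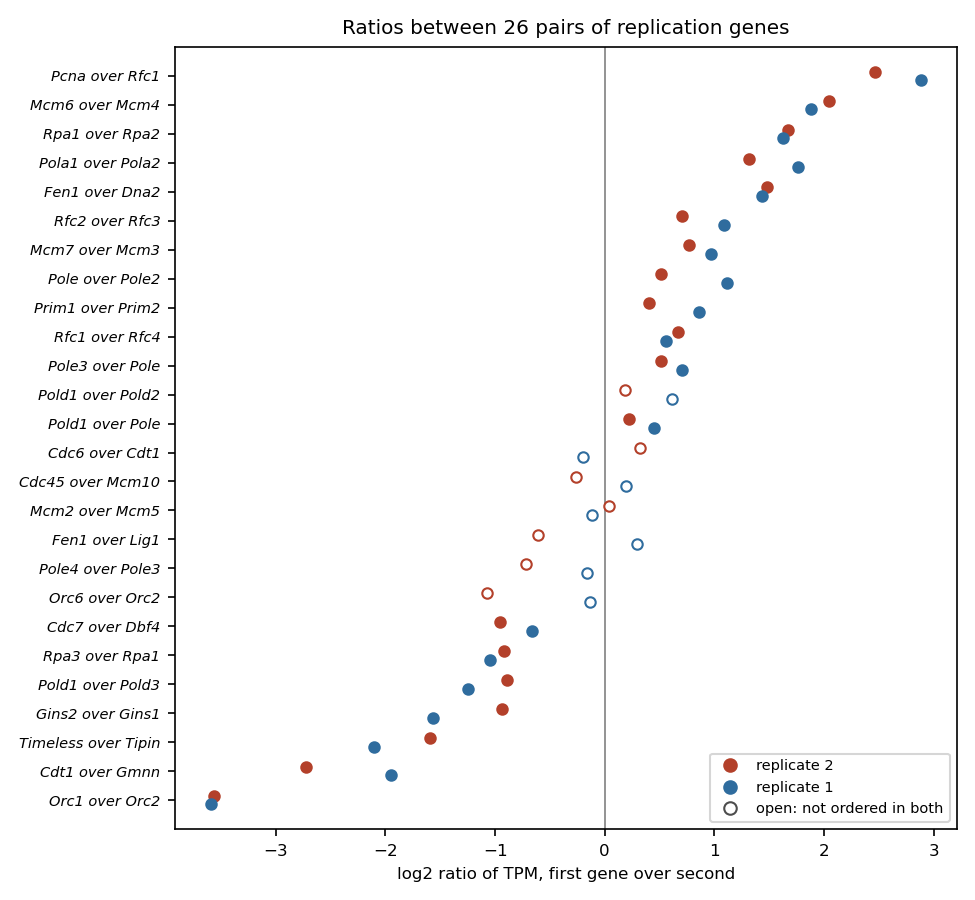
log2 ratio of TPM, first gene over second, for 26 pairs of replication genes, with replicate 2 in red above replicate 1 in blue and open symbols for the 7 pairs that were not ordered in both libraries. Pcna over Rfc1 had the highest ratio and Orc1 over Orc2 the lowest, 12-fold below.

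Of the 26 pairs drawn, 19 were ordered in both libraries. The pairs that were not ordered had ratios between 0.476 and 1.53 in either library, and 4 of the 7 changed direction between the libraries. Without division by length, Pole3 over Pole and Pold1 over Pole turned round; the longest protein-coding transcript of Pole has 7163 nucleotides.

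Between the libraries, replication genes were mostly higher in replicate 2, as protein-coding genes were by TPM. By TPM 47 of 50 were higher in replicate 2, beside 74.0% of protein-coding genes with a mean of at least 1 TPM. By CPM 43 of 50 were higher, beside 54.9% of those genes. With TPM rescaled over protein-coding genes, 38 of 50 were higher. The share of protein-coding genes that were higher on that scale was not computed, so this count has no background. The median log2 ratio of TPM (pseudocount 0.1), replicate 2 over replicate 1, was 0.48 for the 50 genes and 0.29 for the 9900 protein-coding genes with a mean of at least 1 TPM. By CPM it was 0.23 for the 50 genes and 0.05 for protein-coding genes, so the 50 lay above the rest by 0.19 on the TPM scale and 0.18 on the CPM scale. With 2 libraries in 1 group no test of a difference is possible, because the smallest p of an exact sign-flip permutation is 0.5, and these values compare libraries rather than conditions.

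Deposited intervals did not overlap between the libraries for 43 of the 50. Of these 42 were higher in replicate 2, against 57.7% of protein-coding genes, and 1, Orc6, was lower in replicate 2, against 13.3%. Past 1.5-fold with intervals apart there were 19 genes, all higher in replicate 2, against 23.8%. Past 2-fold there were 5 genes higher in replicate 2, against 6.57%, and 0 lower, against 2.07%. By CPM with 95% counting intervals 0 of the 50 passed 2-fold in either direction, against 2.22% higher and 3.21% lower among protein-coding genes.

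The 5 genes past 2-fold were Orc4, Mcm10, Gins2, Pole2 and Lig1, at ranks 4, 32, 43, 46 and 16 of the 50 by level. The log2 ratio of TPM was 1.31 for Lig1, and its log2 ratio of CPM was 0.62. For Gins2 the log2 ratio was 1.29 by TPM and 0.12 by CPM, while its effective length differed by -0.98 on the log2 scale between the libraries. For Pole2 it was 1.21 by TPM and 0.97 by CPM, and Pole2 has 1 transcript in the tables, so a shift between isoforms could not be measured for it. Mcm10 had 1.08 by TPM and 0.62 by CPM, and Orc4 had 1.02 by TPM and 0.49 by CPM. Effective length differed by over 20% between the libraries for 10 of the 50 genes. At the other end, the lowest ratios were those of Orc6 with -0.31, Pole4 with -0.11 and Cdt1 with -0.02, and Pole4 and Cdt1 had overlapping intervals. Neutrophil markers differed in the opposite direction and erythroid markers in the same direction between the libraries, and their part in these differences was not tested.

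**Figure D4:**
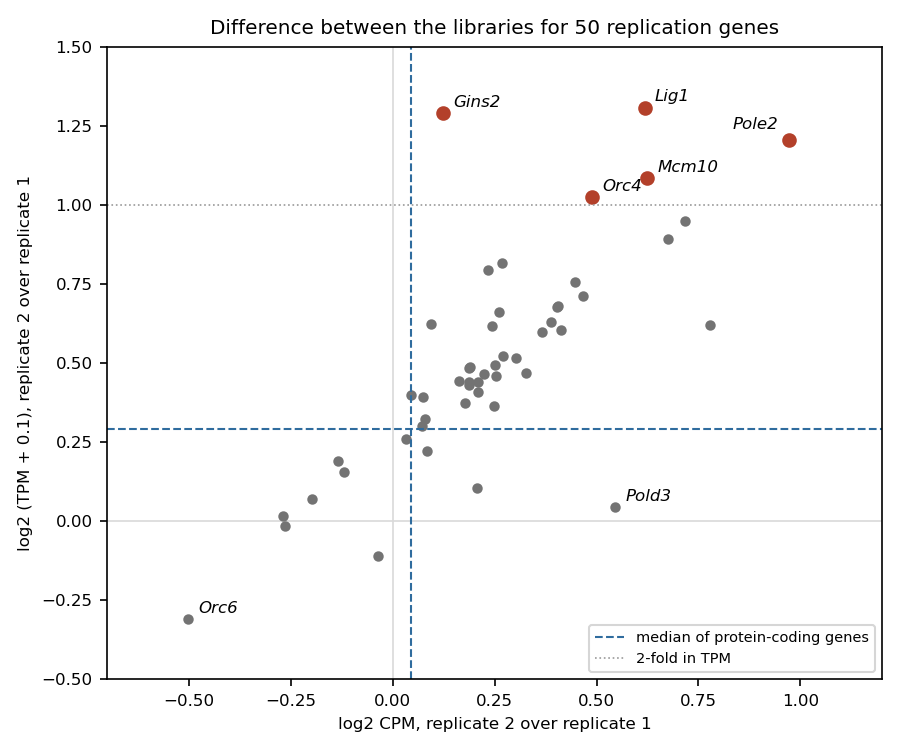
log2 ratio of TPM with a pseudocount of 0.1 against log2 ratio of CPM, replicate 2 over replicate 1, for each of the 50 genes, with dashed lines at the medians of protein-coding genes and a dotted line at 2-fold. The 5 genes in red passed 2-fold by TPM, and none of the 50 reached a log2 ratio of 1 by CPM.

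Transcript tables split each gene into isoforms, 260 in all for the 50 genes, of which 11 had no match in the annotation. In 41 of 50 genes the same transcript had the highest isoform percent in both libraries, and 9 of these genes have only 1 transcript. Protein-coding transcripts took a median of 90.9% of a gene's TPM in replicate 2 and 92.2% in replicate 1. Retained-intron transcripts took over 10% in both libraries in 15 genes, which were Orc5, Mcm7, Mcm10, Gins2, Dbf4, Prim1, Pold1, Pold3, Pole, Pcna, Rfc3, Rpa1, Rpa2, Lig1 and Dna2. The method sequences total RNA, which can include unspliced RNA. The matching shares over all protein-coding genes were not computed, so these isoform counts do not set the 50 genes apart from others.

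In Orc4 the highest transcript in both libraries was Orc4-206, a processed transcript of 424 nucleotides, with 41.5% of the TPM of the gene in replicate 2 and 46.5% in replicate 1. The full-length protein-coding Orc4-201, of 4066 nucleotides, had 8.54% of the TPM in replicate 2 and 11.8% in replicate 1, yet it held 2741 of 6167 expected counts in replicate 2 and 1253 of 2529 in replicate 1. Orc4-206 itself held 642 expected counts in replicate 2 and 297 in replicate 1. The TPM of protein-coding Orc4 transcripts was 20.1 in replicate 2 and 7.05 in replicate 1. In Timeless, too, the highest was a processed transcript in both libraries, Timeless-202 with 45.0% in replicate 2 and 56.8% in replicate 1. In Gins2 the processed transcript Gins2-202 led replicate 2 with 69.5%, and the protein-coding Gins2-201 led replicate 1 with 37.0%. In Rfc1 an unmatched transcript led replicate 2 with 40.6%, and Rfc1-201 led replicate 1 with 44.1%.

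The other genes whose highest transcript differed between the libraries had protein-coding ones in both. In Orc3 it was Orc3-202 in replicate 2 (34.5%) and Orc3-201 in replicate 1 (28.1%). In Orc6 it was Orc6-201 in replicate 2 (100% of the TPM) and Orc6-202 in replicate 1 (57.7%). In Cdc6 it was Cdc6-202 in replicate 2 (46.4%) and Cdc6-201 in replicate 1 (50.8%). Both transcripts of Orc6 are annotated protein-coding. In Cdc7 it was Cdc7-202 in replicate 2 (59.3%) and Cdc7-201 in replicate 1 (50.4%). In Dbf4 it was Dbf4-207 in replicate 2 (55.2%) and Dbf4-201 in replicate 1 (34.0%), which are 2402 and 2401 nucleotides long. In Fen1 it was Fen1-204 in replicate 2 (44.4%) and Fen1-202 in replicate 1 (67.8%). In Lig1 it was the short Lig1-212 of 1053 nucleotides in replicate 2 (42.3%) and the longer Lig1-201 of 3091 nucleotides in replicate 1 (49.3%).

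**Figure D5:**
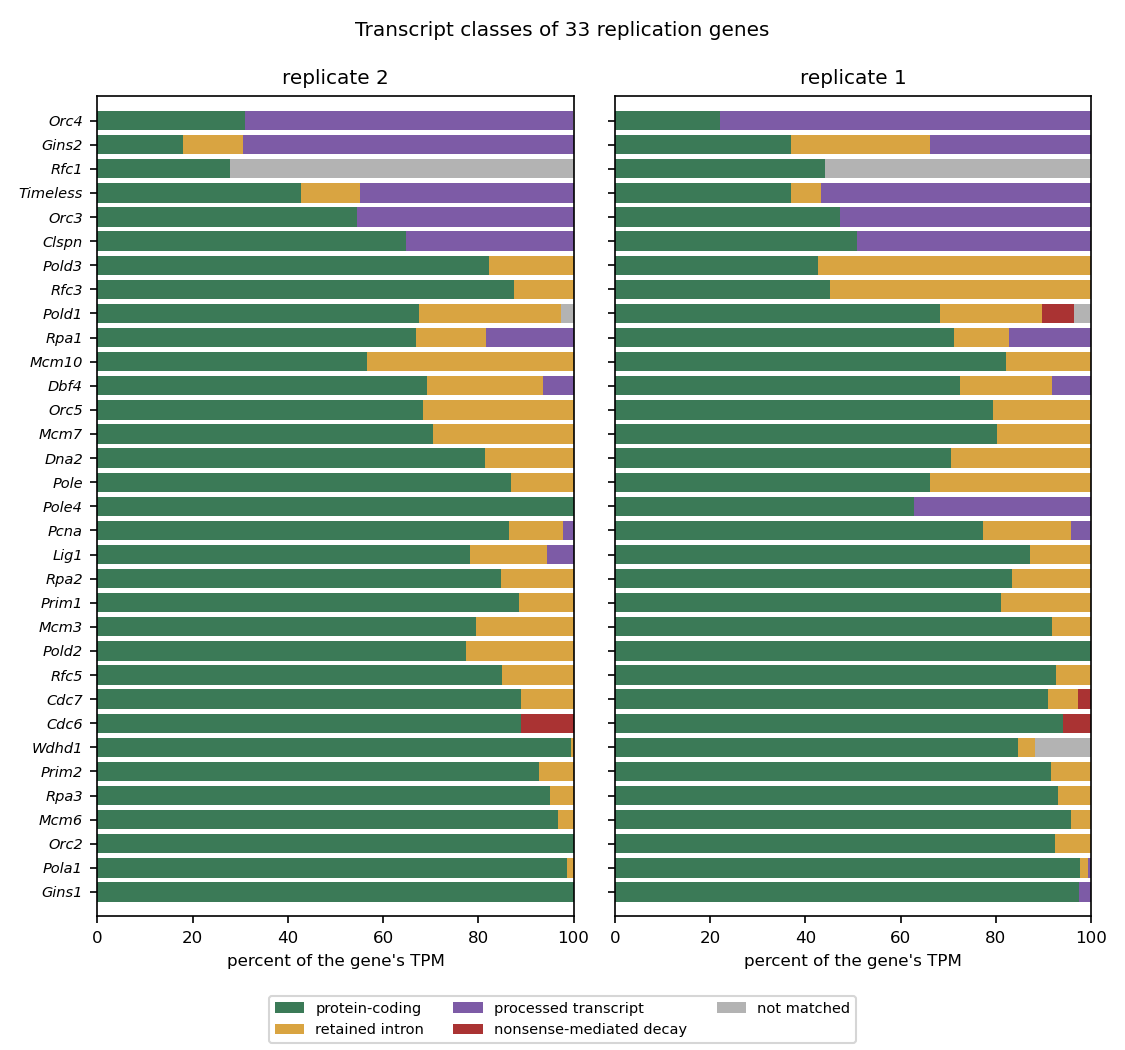
Percent of the TPM of a gene in each transcript class, replicate 2 on the left and replicate 1 on the right, for the 33 genes with under 99% in protein-coding transcripts in at least 1 library. Orc4 and Gins2 are at the top, with 31.0% and 18.0% in protein-coding transcripts in replicate 2 and 22.2% and 37.0% in replicate 1.

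Other genes of replication and the cell cycle were also broadly detected. Of 42 other replication genes 41 reached 1 TPM in both libraries, with medians of 10.8 TPM in replicate 2 and 9.77 TPM in replicate 1, and 36 were higher in replicate 2 by TPM and 32 by CPM. Highest among them were Top2a, the topoisomerase of dividing cells, with 109 TPM in replicate 2 and 81.5 TPM in replicate 1, the histone chaperone gene Ssrp1 with 79.9 TPM in replicate 2 and 71.3 TPM in replicate 1, and Top2b with 52.1 TPM in replicate 2 and 38.3 TPM in replicate 1. Lowest were Recql4, a helicase gene, with 1.71 TPM in replicate 2 and 0.91 TPM in replicate 1, and Ticrr, needed for origin firing, with 2.21 TPM in replicate 2 and 1.56 TPM in replicate 1. All 16 genes of deoxynucleotide synthesis were detected, with medians of 22.3 TPM in replicate 2 and 11.9 TPM in replicate 1, as were all 23 G1/S cyclins and E2F factors, with 10.2 TPM in replicate 2 and 5.35 TPM in replicate 1. All 36 genes of mitosis and the spindle were detected, with medians of 12.7 TPM in replicate 2 and 9.29 TPM in replicate 1, with all 36 higher in replicate 2 by TPM and 33 by CPM. These counts, and those of the other replication genes, stand beside the 74.0% of protein-coding genes that were higher by TPM and the 54.9% by CPM. Of 8 CDK inhibitors 5 were detected in both, with medians of 2.59 TPM in replicate 2 and 2.76 TPM in replicate 1. The 50 genes had medians of 15.7 TPM in replicate 2 and 10.8 TPM in replicate 1, and the share of cycling cells in either library was not measured.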

How the data were processed

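Per the labels, rRNA-depleted total RNA of 2 HSC replicates was sequenced. The sample text files name mm10 as the genome and GENCODE M4 as the annotation. Which aligner and which counter were used is not given in the sources. Per the file headers, the deposited tables hold expected counts (estimates that can be fractional), TPM and FPKM, with a posterior mean for each. They also hold deposited lower and upper bounds of TPM, treated as a score because the headers name no level, which surround the posterior mean rather than the TPM. The deposited transcript tables add isoform percent. TPM was scaled by the authors over all 69691 features of a table, so a change in any abundant RNA moves every TPM.

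Symbols, classes and positions came from GENCODE M21 (GRCm38), matched by identifier without version for 42462 of 43346 Ensembl genes. Members, gene lists, pairs and call rules were chosen with earlier results of these data known. Detection meant at least 1 TPM in both libraries. Calls between libraries needed at least 2-fold between TPM values (pseudocount 0.1) averaging 1 TPM or more, and intervals that did not overlap. CPM was computed from expected counts, with exact Poisson 95% intervals. Poisson intervals and floors cover counting error only. Deposited bounds can be wider, such as 0.954 to 2.90 TPM for Orc1 in replicate 1 with 230 expected counts. None of these covers variation between animals. Text names all members, and of other replication genes the 3 highest and 2 lowest. Of the marker lists it names Cd34, Flt3, Cd48, Slamf1, Hlf, Mecom, Procr, Fgd5, Tek, S100a8 and Pax5. These marker genes fall outside the rule and were picked with their values in view, as were the overlapping genes and pseudogenes. Scripts ran in Python 3.11.15 (pandas 2.3.3, numpy 2.4.6, scipy 1.17.1, matplotlib 3.10.9), and edgeR 4.0.16 and DESeq2 1.42.0 in R 4.3.3 gave only scaling factors, from expected counts rounded to whole numbers. Call rules were tested on simulated Poisson counts with Poisson intervals and changes larger than the 2-fold cutoff. That test does not cover the deposited intervals or shifts between isoforms. Alternatives were other thresholds, pseudocounts, scalings, posterior means, FPKM, CPM and each library alone. CPM for the library difference, protein-coding transcripts alone, and counts per kilobase of the longest protein-coding transcript were chosen after seeing the data. In some genes, among them Gmnn, Mcm6 and Rpa1, that longest transcript held little or none of the TPM of the gene.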

Additional observations from a re-analysis of the deposited data

How the results depend on the processing

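Between 44 (threshold of 5 TPM) and 50 (threshold of 0.5 TPM) of the 50 genes were detected, with 49 to 50 when either library was left out. The members' median log2 (TPM + 1) lay 3.21 ± 0.34 (SD, n = 2) above that of protein-coding genes, with 2.97 to 3.45 in either library alone, 4.40 with a pseudocount of 0.1, 4.29 by CPM, 3.94 by FPKM and 4.23 with TPM rescaled over protein-coding genes. Ordered pairs within complexes numbered 46 with a further 1.5-fold minimum, against 65, and 70 to 73 in either library alone. The median range of a complex was 3.14-fold, with 3.02 to 3.52 in either library alone and 2.65 per kilobase of the longest protein-coding transcript. The ORC range was 39.9-fold, 22.3-fold by posterior means, 12.7-fold by CPM and 13-fold per kilobase of the longest protein-coding transcript. The 5 genes past 2-fold between the libraries became 19 at 1.5-fold and 0 with TMM-scaled counts, DESeq2 size factors, CPM or TPM rescaled over protein-coding genes. With a pseudocount of 1 there were 4, without Mcm10. Over protein-coding transcripts alone there were again 5, but Pole and Rfc3 stood in place of Mcm10 and Gins2. The median log2 difference stayed above 0 in the alternatives run, between 0.16 (rescaled) and 0.48. Log2 Pole3 over Pole was -0.96 and Pold1 over Pole -0.62 by CPM, against 0.61 and 0.34 by TPM. The cause was not tested for any of these, beyond the division by length or the scale that the alternative itself removes. The same highest transcript led in 41 genes, 41 by posterior means and 42 among protein-coding transcripts. No paired analysis was possible because there is only 1 group. Leaving out a library gives no value for differences between libraries or for the count of shared highest transcripts.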
